A study of Mus musculus with 9 samples.

Results

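Cytosolic ribosomal protein genes were followed in whole skin of mice with and without Cd1d, the molecule that presents lipid antigens to natural killer T cells. Members are all probe sets whose platform annotation gives a single gene symbol of the form Rpl or Rps followed by a digit or p. Kinases of the Rps6k family and names with -ps were left out. The rule gave 48 probe sets for 34 genes, among 10833 probe sets with 1 gene for 8251 genes. Of the 34 genes, 16 are large-subunit (Rpl) genes, 17 are small-subunit (Rps) genes and 1, Rplp0, encodes the base of the ribosomal stalk. The knockout group was 5 Cd1d -/- mice and the wild-type group was 4 Cd1d +/+ mice. All 9 mice were on the C57BL/6 inbred background, unirradiated and matched for age and sex, with no age stated, and each mouse had its own Affymetrix MG-U74 array. The labels do not say how Cd1d was disrupted.

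Ribosomal proteins assemble with ribosomal RNA in the nucleolus into the small subunit, which decodes the messenger RNA, and the large subunit, which joins the amino acids. Their messenger RNAs are among the most abundant of most cells, and many start with a pyrimidine tract through which the mTOR pathway controls their translation as a group. Most members are needed in every cell in matched amounts. In mouse skin, mutations of Rps19 and Rps20 are known to darken the skin through p53 in keratinocytes, and Rps19 is also the gene most often mutated in Diamond-Blackfan anaemia.

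The array has no depth, so the number of mice limits precision. Signals are in arbitrary MAS5 units (Affymetrix Microarray Suite signals, scaled to a common mean per array). The brightness of a probe set depends on its own probes, so the levels of different genes are not set against one another. Probe sequences were not at hand, so whether a probe set also reads related transcripts or pseudogenes was not tested. A probe set was tested where its signal reached the 40th percentile of the array, a signal of 43.4 to 53.3, in at least 4 arrays. This left 7658 probe sets. In the check of the labels, Cd1d1 read 47.6 to 79.6 in the knockout mice and 91 to 130 in the wild-type mice. Of 13 keratinocyte markers on the array 10 were tested, among them Krt10 and Krt1, while the probe sets of Krt5 and Krt14 read below the tested level. Whole skin holds many cell types, so fewer cells of a type and less RNA per cell cannot be told apart. Gapdh 3′ to 5′ ratios, a sign of RNA integrity, were 0.871 to 0.906 in the knockout and 0.861 to 1.03 in the wild-type mice. Actin ratios were 1.005 to 1.14 and 1.11 to 1.21. Whether they play a part in any result here was not tested.

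Promoter stretches show what the genes share outside the rule. RefSeq promoter windows of GRCm38.p6, from 250 bases before to 50 bases after a start, matched 27 of the 34 genes by gene identifier, in 36 windows. The motif CGGAAG, the core recognised by ETS family factors, was searched on both strands. It stood in a window of 18 of these 27 genes (66.7%), against 23.5% of 17492 protein-coding genes. AAGATGGC, a core of the YY1 site, was found for 5 of 27 genes (18.5%), against 3.57% of coding genes. GGGCGG, the GC box, was found for 16 (59.3%, against 49.2%) and TATAAA for 4 (14.8%, against 14.8%), both on either strand. An unbroken run of at least 8 C or T bases on the gene strand, within 25 bases of the start, was found for 13 genes (48.1%, against 22.0%). These motifs can overlap one another, and a gene counts where any of its windows holds the match. The 5 stretches below belong to members whose signals are described next, and were picked because they hold CGGAAG or its reverse complement, shown in capitals. Each runs 5′ to 3′ on the gene strand, from 60 bases before to 15 bases after the RefSeq start.
Rpl41 (chr10:128549154-128549228, minus strand): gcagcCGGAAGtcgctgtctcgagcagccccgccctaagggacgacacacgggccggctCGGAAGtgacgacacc
Rpl37a (chr1:72711200-72711274, plus strand): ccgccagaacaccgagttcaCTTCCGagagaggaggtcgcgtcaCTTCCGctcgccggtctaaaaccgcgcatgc
Rps18 (chr17:33955651-33955725, minus strand): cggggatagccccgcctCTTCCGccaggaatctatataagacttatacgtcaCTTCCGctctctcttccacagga
Rps7 (chr12:28635939-28636013, minus strand): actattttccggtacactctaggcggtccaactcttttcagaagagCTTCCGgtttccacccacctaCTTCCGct
Rps3a1 (chr3:86142654-86142728, minus strand): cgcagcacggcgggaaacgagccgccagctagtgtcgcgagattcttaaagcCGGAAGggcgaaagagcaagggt
A match is a description of letters and not a site of binding. The stretch of Rps3a1 holds 1 match and the other 4 hold 2 each. Over 75 bases, 7 of the 16 bright member genes with a window, defined next, hold at least 1.

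Differences between knockout and wild-type skin were small for bright ribosomal protein probe sets and loosely bounded for dim ones. Of the 48 probe sets 33 passed the level filter, covering 26 genes, and they fell into a bright class and a dim class with a gap between them. In 20 probe sets of 18 genes the mean signal was 1391 to 15853, and in 13 probe sets it was 45.3 to 417. The boundary of 1000 was set after the values were seen. In the bright class the log2 differences, knockout minus wild type, ran from -0.22 to 0.10 with a median of -0.03, against a median of 0.01 over all probe sets tested and of -0.05 over the 600 other probe sets with a mean signal of at least 1000. The median size of the difference, regardless of sign, was 0.05 for the bright class, 0.16 for all probe sets tested and 0.14 for those 600. The 600 leave out probe sets annotated to a ribosomal protein gene together with other genes, which are described below. The 600 were not matched to the bright class in signal, and the 98th percentile of all probe sets was 2112 to 2509 over the arrays. Whether brightness plays a part in the size of the differences was not tested. In the dim class the log2 differences ran from -0.73 to 0.28, and the 95% interval lay within 0.5 of 0 for 4 of the 13.

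**Figure D1:**
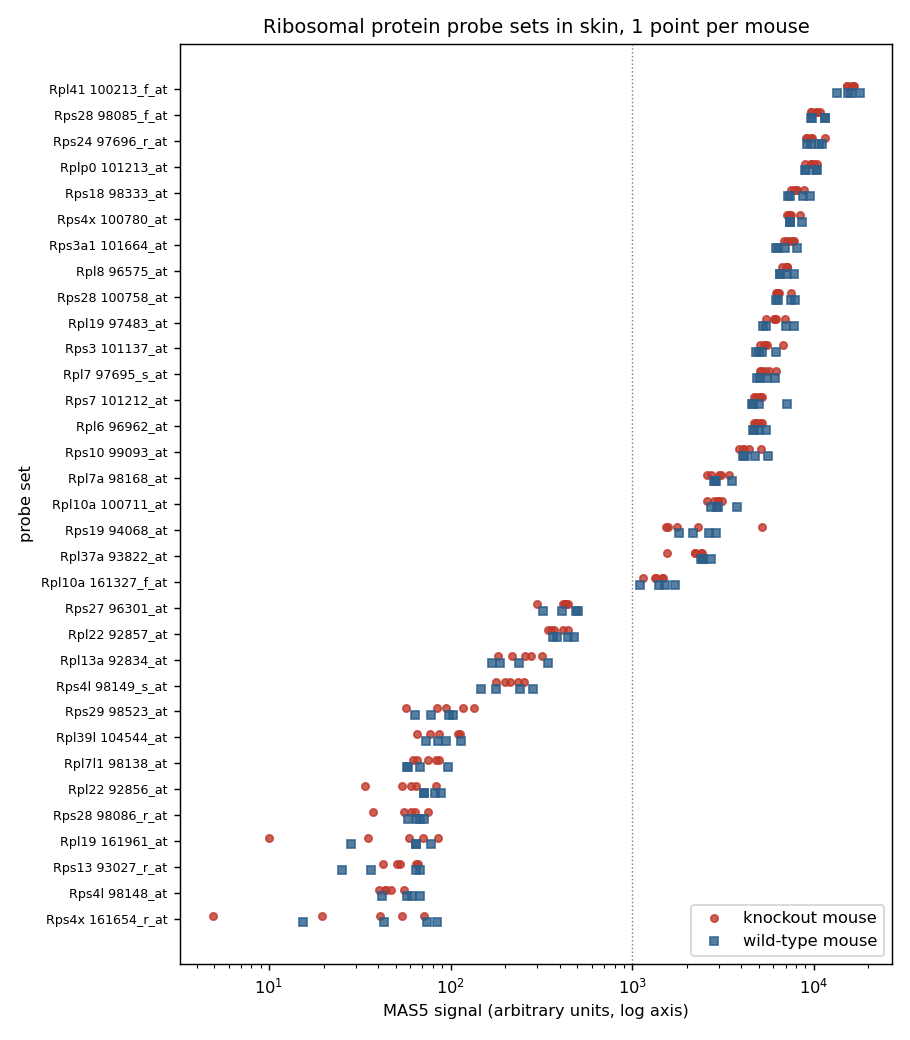
Signal of each of the 33 tested ribosomal protein probe sets on a log axis in MAS5 units, with circles for the 5 knockout mice and squares for the 4 wild-type mice; the dotted line marks a signal of 1000. Knockout and wild-type points overlap in every row, and 20 rows lie wholly to the right of the line.

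By limma (moderated linear models, Benjamini-Hochberg adjustment), 0 of the 33 probe sets passed an adjusted p of 0.05, where 0.0522% of all 7658 did. At an unadjusted p under 0.05, limma called 0 of 33 members, against 9.4% of all probe sets. The smallest unadjusted limma p among the members was 0.0935 and the smallest adjusted p 0.597. The groups were free of overlap for 0 of the 33, against 3.19% of all. Positive differences were found for 11 of the 33 and negative ones for 22. By subunit, 6 of 16 large-subunit and stalk probe sets were positive, with a median of -0.03, and 5 of 17 small-subunit probe sets, with a median of -0.05. Among all probe sets tested 51.2% were positive, and among the 600 other bright ones 39.5%. The count of positive members moved with single mice, from 6 without wild type 4 to 20 without wild type 2. A p that misses the threshold does not show equality, and the intervals give what the data allow. In 19 of the 20 bright probe sets, all but that of Rps19, the 95% interval of the log2 difference lay between -0.52 and 0.33.

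**Figure D2:**
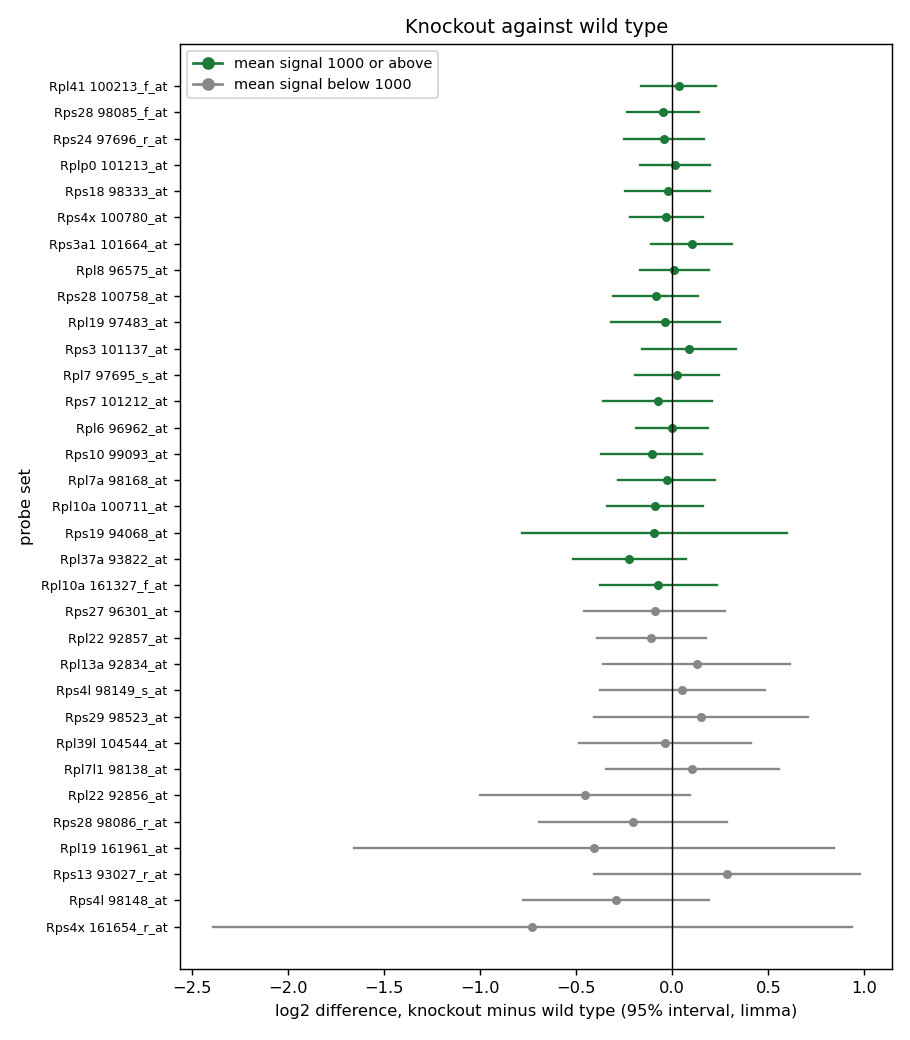
Log2 difference, knockout minus wild type, of the 33 tested probe sets (points) with limma 95% intervals (lines), ordered by mean signal; green marks a mean signal of 1000 or above. Every interval includes 0, and the intervals widen towards the dim probe sets at the bottom, where that of a second Rps4x probe set reaches -2.39.

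Rplp0, whose protein anchors the stalk that recruits elongation factors, read 9612, 8990.1, 9680.7, 10426.1 and 9994.5 in knockout 1 to 5. The wild-type values were 9038.5, 10355.7, 10280.3 and 8957.5 for wild type 1 to 4. The lowest and the highest mouse belong to different groups and the values interleave. The means were 9741 ± 529 (SD, n = 5) and 9658 ± 763 (SD, n = 4), a log2 difference of 0.01 (SE 0.08, 95% interval -0.17 to 0.20, limma adjusted p = 0.977). This interval corresponds to 89.0% to 115% of the wild-type level.

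Among the large-subunit genes, Rpl8, a protein close to the peptidyl transferase centre, varied least in the knockout mice. It read 7119, 7088.3, 6685.4, 7127.7 and 7001.5 there, and 6553.5, 7743.8, 7080.2 and 6501.6 in the wild-type mice. The 5 knockout values lie inside the wild-type range. The log2 difference was 0.01 (95% interval -0.17 to 0.19).
Rpl6 read 4922 ± 212 against 4935 ± 371, with a log2 difference of -0.002 (95% interval -0.19 to 0.19). Rpl41, the smallest ribosomal protein and the brightest probe set here, read 15986 ± 678 against 15687 ± 1885 (0.03, interval -0.16 to 0.23). Rpl7 read 5491 ± 458 against 5400 ± 564 (0.03, interval -0.19 to 0.24). The knockout means of these 3 genes lay within 1 wild-type SD of the wild-type mean.
Rpl19, which forms a bridge between the subunits, had a log2 difference of -0.04 and Rpl7a one of -0.03. The 2 probe sets of Rpl10a gave -0.09 and -0.07.

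Rpl37a, a zinc-finger protein of the large subunit, had the largest difference of the bright class. The knockout mice read 2232.9, 2229.3, 2400.6, 1560.8 and 2421.1, and the wild-type mice 2455, 2454.4, 2733.4 and 2382.2. Knockout 4 lay far below the other 8 mice, and knockout 3 and 5 lay inside the wild-type range. The means were 2169 ± 352 and 2506 ± 155, a log2 difference of -0.22 (SE 0.13, 95% interval -0.52 to 0.07, limma adjusted p = 0.641). The exact two-sided permutation test over every arrangement of the arrays gave p = 0.0635, where 0.00794 is the smallest it can give. Without knockout 4 the log2 difference was -0.11 (limma adjusted p = 0.726).

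In the small subunit, Rps3a1 and Rps3, both close to the path of the messenger RNA, had the largest positive differences of the bright class. Rps3a1 read 7720.5, 7437.2, 6875.2, 7800.2 and 7106.7 in the knockout and 6228.3, 8130.5, 6955.1 and 6368.5 in the wild-type mice. Wild type 2 was the highest of all 9 and the other 3 wild-type mice lay below the knockout mean. The log2 difference was 0.10 (SE 0.10, interval -0.11 to 0.31, limma adjusted p = 0.788), and without wild type 2 it was 0.18 (limma unadjusted p = 0.0446, adjusted p = 0.506). Rps3 gave 0.09 (interval -0.16 to 0.33), at 5634 ± 668 against 5305 ± 634. Rps10, at 4310 ± 473 against 4659 ± 703, gave -0.11 (interval -0.37 to 0.15).
Rps18, Rps24 and Rps7 had log2 differences of -0.02, -0.04 and -0.08. The 2 bright probe sets of Rps28 gave -0.05 and -0.09.
Rps4x, the X-linked small-subunit protein, read 7338.5, 7284.1, 7504.3, 8367.6 and 7091.1 in the knockout. In the wild-type mice it read 7386.6, 8603.6, 7382.3 and 7382, so that 3 wild-type mice were nearly equal and wild type 2 stood above them. The log2 difference was -0.03 (interval -0.22 to 0.16).

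Rps19, the gene of Diamond-Blackfan anaemia, was the exception in spread. The knockout mice read 1760.4, 1583.2, 2306.3, 5157.6 and 1545.8, and the wild-type mice 2171.8, 2636.7, 1813.8 and 2904.9. Knockout 4 was the highest of the 9 mice by a wide margin, while knockout 1, 2 and 5 were the 3 lowest. The means were 2471 ± 1532 and 2382 ± 485, and the log2 difference was -0.09 (SE 0.31, interval -0.78 to 0.60, limma adjusted p = 0.953). Without knockout 4 it was -0.40 (limma unadjusted p = 0.0398, adjusted p = 0.472), so its size and width rest on that mouse. It was 0.03 without knockout 2 or without knockout 5, and 0.01 without wild type 4. In knockout 4 the median of the keratinocyte markers stood 0.28 (log2) above the mean of the mice, against -0.08 to 0.06 in the other 8. That mouse was the highest of the 9 for 6 of the 10 keratinocyte markers. Their summed signal was 43910 in knockout 4 and 29876 to 32946 in the others. Knockout 4 was also the highest mouse for the medians of fibroblast markers (0.32) and of 4 T and natural killer cell markers (0.45). For hair follicle markers it was the lowest (-1.74). It was at neither end for the other cell type lists. The part of any of these in the Rps19 value was not tested.

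**Figure D3:**
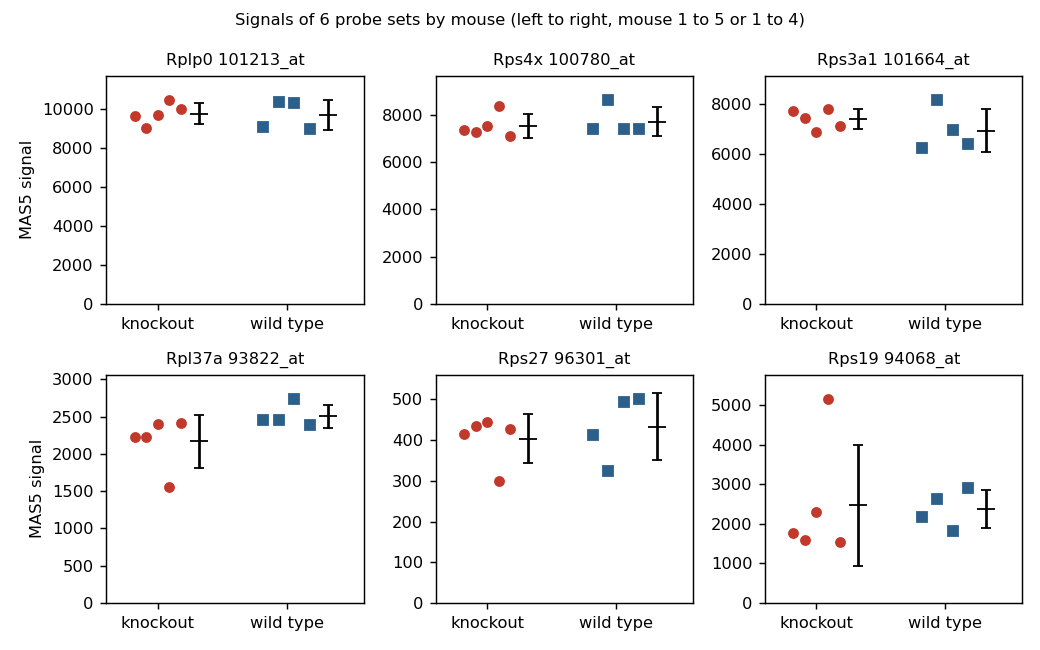
MAS5 signals of Rplp0, Rps4x, Rps3a1, Rpl37a, Rps27 and Rps19 by mouse, with circles for knockout 1 to 5 and squares for wild type 1 to 4 from left to right, and the mean ± SD beside each group; axes start at 0. Knockout 4 is the lowest knockout mouse for Rpl37a (1560.8) and Rps27 (298.8) and the highest for Rps19 (5157.6).

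Dim probe sets of members had wider intervals. As a median over the 13, knockout 4 deviated from the mean of the mice by -0.32 (log2), against -0.08 to 0.24 in the others. Rps27, a zinc-finger protein of the small subunit, read 415.3, 433.5, 445.2, 298.8 and 426.9 in the knockout and 412.6, 324.3, 492.9 and 500.4 in the wild-type mice. Of the knockout mice 4 of 5 lay within the wild-type range, and knockout 4 lay below it. The log2 difference was -0.09 (interval -0.46 to 0.28). Rpl13a, a large-subunit protein also known for silencing transcripts after interferon-gamma, gave 0.13 (interval -0.36 to 0.61), and Rps29 gave 0.15 (-0.41 to 0.71). Rps13 gave 0.28 (-0.41 to 0.98) at 55.3 ± 9.94 against 48.6 ± 21.2, close to the tested level, and 0.01 without wild type 4.

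Rpl22, which is needed for alpha-beta T cell development, had the smallest p of the members in a dim probe set. That probe set read 60.4, 83.7, 54.2, 33.8 and 64.5 in the knockout and 88.1, 71.6, 71.3 and 82.6 in the wild-type mice. All knockout mice but knockout 2 were below the 4 wild-type mice. The log2 difference was -0.46 (interval -1.002 to 0.09, limma adjusted p = 0.597; exact permutation p = 0.0794). It was -0.27 without knockout 4, -0.08 within the 5 arrays whose deposited values carry 7 decimals and -0.22 with a pseudocount of 64. Other settings did not shrink it. It was -0.59 without knockout 2 (limma unadjusted p = 0.0342, adjusted p = 0.633) and -0.50 with the replicate number as a block. Quantile normalization gave -0.46 (limma unadjusted p = 0.0448, adjusted p = 0.501). The brighter Rpl22 probe set gave -0.11 (interval -0.39 to 0.17) at 388 ± 41.7 against 418 ± 50.2, so the 2 probe sets share a sign and differ in size.

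Members with names of ribosomal protein relatives were dim. Rpl39l, the testis-enriched relative of Rpl39, read 90.4 ± 20.5 against 91.9 ± 16.8 (log2 -0.04). Rpl7l1 read 74.3 ± 10.4 against 70.2 ± 18.5 (0.10). The 2 probe sets of Rps4l, which the RefSeq table lists as a transcribed pseudogene, gave -0.29 and 0.05. Rps27l, a known p53 target, read 5.90 ± 1.58 and 3.90 ± 0.702 and was too dim to be tested.

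Of the 10 genes with several probe sets, 6 had more than 1 tested. Only Rps4x had tested probe sets that differed by more than 0.5 in their log2 difference. Its second one gave -0.73 (interval -2.39 to 0.94), with signals of 4.9 to 71.3 in the knockout and 15.4 to 84.2 in the wild-type mice, so the groups overlapped over nearly their whole range. A second Rpl19 probe set gave -0.41 (-1.66 to 0.84) and a further Rps28 probe set -0.20 (-0.69 to 0.29), each dim. Without knockout 4, the lowest mouse in all 3, the values were -0.11 for Rps4x, 0.11 for Rpl19 and -0.05 for Rps28.

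The other 15 member probe sets read below the tested level, with mean signals of 3.67 to 34.1. They left 8 genes with no tested probe set, namely Rpl32, Rpl35a, Rpl38, Rpl39, Rps14, Rps15, Rps20 and Rps27l. A probe set below the tested level gives no level of its gene. The groups were free of overlap in 1 of the 15, that of Rps15, which read 1.9 to 10.2 in the knockout and 10.7 to 14 in the wild-type mice. Among all 4763 probe sets below the tested level with a value in every mouse, 2.27% were free of overlap. A further probe set of Rps4x read 51.3, 39.9, 32.7, 12.3 and 43.6 in the knockout and 14.4, 6.3, 10.7 and 9.2 in the wild-type mice. Knockout 4 fell among the wild-type values. The bright Rps4x probe set showed no such split, as given above.

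A further 39 probe sets are annotated to a ribosomal protein gene together with pseudogenes or other genes, and are not members. They touch 34 ribosomal protein genes, 33 of which have no member probe set. By limma 0 of the 34 tested ones passed the adjusted threshold and 0 had an unadjusted p under 0.05, with a median log2 difference of -0.05 and 9 positive. Rps6, the target of S6 kinase, shares its probe set with a pseudogene and had the smallest p of them. It read 5909.8, 5478.2, 6255.7, 6312.4 and 5533.8 in the knockout and 6698.2, 6905.4, 6605.7 and 6154.3 in the wild-type mice. Knockout 3 and 4 were above wild type 4, and the other 3 knockout mice were below all wild-type mice. The log2 difference was -0.16 (interval -0.35 to 0.02, limma adjusted p = 0.576). Rpl5, which carries 5S ribosomal RNA and binds Mdm2, gave -0.02 (interval -0.23 to 0.20). Rplp1, an acidic stalk protein, gave 0.11 (interval -0.09 to 0.31) at 10216 ± 514 against 9485 ± 1094. Rpl3, at the peptidyl transferase centre, gave 0.06 in its bright probe set, and Rpl22l1, the paralog of Rpl22, gave 0.09 (interval -0.29 to 0.47).

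The common level of the bright ribosomal protein probe sets differed from mouse to mouse. As a median over the 20, knockout 1 to 5 deviated from the mean of the 9 mice by -0.01, -0.02, -0.06, 0.12 and -0.07 (log2). Wild type 1 to 4 deviated by -0.10, 0.19, 0.05 and -0.10. Wild type 2 was thus the highest mouse and wild type 1 and 4 the lowest, so that the wild-type group alone spanned the whole range of 0.29. Wild type 2 was the highest of the 9 mice for 13 of the 20 probe sets, and knockout 4 for 5. Of the 600 other bright probe sets, 36.3% were highest in wild type 2 and 19.3% in knockout 4. Their medians were 0.15 in wild type 2 and 0.06 in knockout 4. Wild type 2 also had the lowest median signal over the array, 72.5 against 79.2 to 87.1 in the others. After quantile normalization, which gives all arrays 1 distribution and was applied to this level after the data were seen, the range over the 9 mice was 0.11. In that setting wild type 2 lay at 0.003. The part of the signal distribution of wild type 2 in its higher values was not tested.

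**Figure D4:**
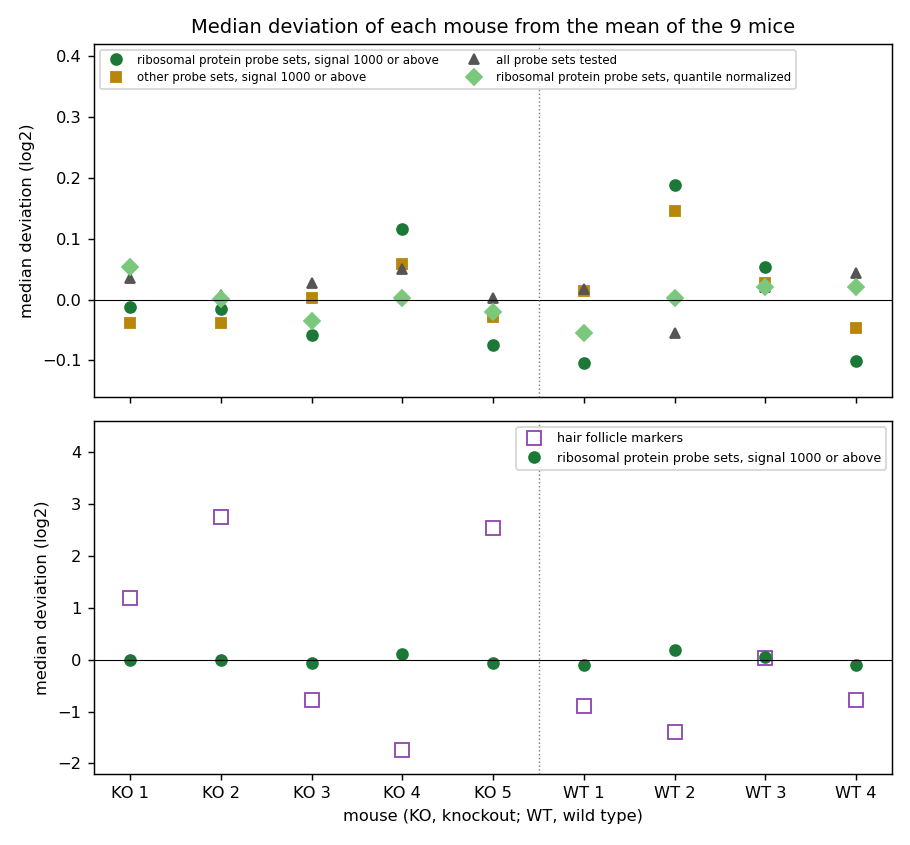
Median log2 deviation of each mouse from the mean of the 9 mice; the upper panel shows the bright ribosomal protein probe sets as scaled (dark circles) and quantile normalized (light diamonds), other bright probe sets (squares) and all probe sets tested (triangles), and the lower panel sets the ribosomal circles against hair follicle markers (open squares). Wild type 2 (0.19) and knockout 4 (0.12) are the highest for ribosomal proteins, while the hair follicle markers reach 2.75 in knockout 2 and -1.74 in knockout 4.

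Hair follicle markers varied far more between the same mice. Of 25 on the array 18 were tested, and their median deviated by 1.19, 2.75, -0.77, -1.74 and 2.54 in knockout 1 to 5 and by -0.89, -1.40, 0.03 and -0.78 in wild type 1 to 4. Their summed signal was 1512 to 40721 in the knockout and 1563 to 3976 in the wild-type mice, so 3 knockout mice were high and 2 were not. Cell cycle genes had positive differences in 28 of 29 tested, with a median of 0.48. By limma 7 had an unadjusted p under 0.05, against 9.4% of all probe sets, and 0 passed after adjustment. Their median deviated by 0.71, 0.50, -0.33, 0.13 and 0.0006 in knockout 1 to 5. In wild type 1 to 4 it deviated by 0.21, -0.02, -0.41 and -0.59. Knockout 1 was the highest mouse for 25 of the 29. With the cell cycle level as a covariate, 8 of the 33 members were positive and the median difference was -0.07. With the hair follicle level as a covariate, 17 of the 33 members were positive and the median difference was 0.01. In that fit 3 members had an unadjusted p under 0.05 by limma and 0 passed after adjustment. They were the dim Rpl22 probe set (-0.77, limma unadjusted p = 0.00591, adjusted p = 0.332), the dim Rps4x probe set (-1.84, limma unadjusted p = 0.00903, adjusted p = 0.378) and Rpl37a (-0.36, limma unadjusted p = 0.0222, adjusted p = 0.403). Rps19 turned to 0.42 (limma adjusted p = 0.443). The share of all probe sets with an unadjusted p under 0.05 in that fit was not set beside these 3. Knockout 4 was the lowest mouse for all 3 and for the hair follicle markers, and the highest for Rps19. The part of that mouse in these values was not tested.

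The deposited values of 5 arrays carry 7 decimals and those of 4 carry 9, a difference of format whose origin the labels do not give. Knockout 1 and 2 and wild type 2, 3 and 4 form the first set, and knockout 3, 4 and 5 and wild type 1 the second. The median difference of the members was -0.06 within the first and 0.05 within the second, and -0.02 with the format as a block. For the bright class the values were -0.09, 0.09 and -0.01. The second set holds a single wild-type mouse, wild type 1, which was the lowest of the 9 for the bright class, so its wild-type arm has no spread of its own and its values are given with no test.

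Spread between mice was small for the bright class. The median SD of log2 signal was 0.17 among the wild-type and 0.11 among the knockout mice, against 0.26 and 0.25 for all probe sets tested and 0.20 and 0.18 for the 600 other bright ones. Those 600 were not matched to the bright class in signal, and the part of brightness in the spread was not tested. The SD lay below the median of all tested probe sets in 16 of the 20 in the wild-type and in 18 of the 20 in the knockout mice. Rps19 (0.73) and Rpl37a (0.26) were the exceptions in the knockout, and the highest SD of the other 18 was 0.16. The SD was larger in the wild-type than in the knockout mice for 16 of the 20. Without wild type 2 this held for 11 of 20, and the wild-type median SD was 0.11. After quantile normalization the order of the medians was reversed, at 0.07 among the wild-type and 0.09 among the knockout mice. In that setting they were 0.24 and 0.25 for all probe sets tested.

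**Figure D5:**
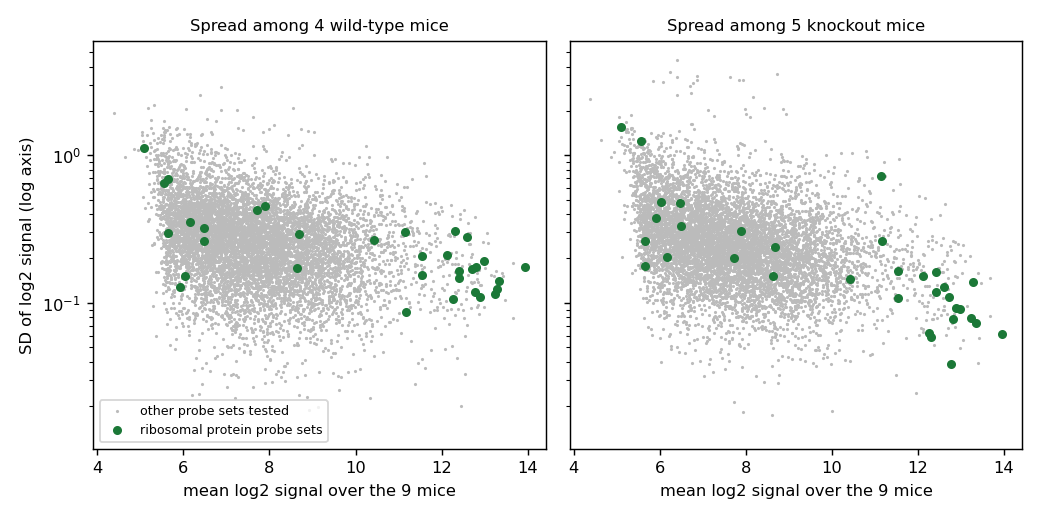
SD of log2 signal (log axis) against mean log2 signal over the 9 mice, for the 4 wild-type mice (left) and the 5 knockout mice (right); grey dots are the other probe sets tested and green circles the 33 ribosomal protein probe sets. Most bright members lie low in the cloud, with SDs of 0.04 (Rpl8) to 0.73 (Rps19) in the knockout mice.

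Other genes of ribosome supply were read from lists that do not overlap the members. Of transcripts outside the ribosome that carry a pyrimidine tract, 11 of 14 on the array were tested, with 7 positive and 4 negative, a median of 0.05 and 0 past the adjusted threshold by limma, while 2 had an unadjusted p under 0.05. That share and those of the next lists stand against 9.4% of all probe sets tested. Pabpc1, the poly(A)-binding protein, read 2809 ± 291 against 2166 ± 470 (log2 0.40, limma adjusted p = 0.471). Eif4b, an initiation factor, read 835 ± 107 against 1106 ± 113 (-0.41, limma adjusted p = 0.397).
Of ribosome assembly factors of the nucleolus, 31 of 33 were tested, with 22 positive and 9 negative, a median of 0.10 and 0 called, and 1 had an unadjusted p under 0.05. That was Nolc1, a nucleolar phosphoprotein, at 78.5 ± 22.7 against 51.8 ± 3.32 (0.55, limma adjusted p = 0.519). Tsr1, a factor of small-subunit maturation, was the next by p (0.33, limma adjusted p = 0.566).
Genes that control ribosomal protein synthesis, such as those of the mTOR pathway, gave 5 positive and 8 negative of 13 tested of 16, a median of -0.01 and 0 called. Eif4ebp1, the translation repressor that mTOR switches off, was the 1 gene with an unadjusted p under 0.05, at 160 ± 10.6 against 244 ± 89.2 (-0.53, limma adjusted p = 0.505). Mdm2, which ribosomal proteins bind when assembly fails, gave 0.35 (interval -0.25 to 0.95).
Mitochondrial ribosomal proteins, which serve the separate ribosome of that organelle, gave 30 positive and 22 negative of 52 tested of 61, a median of 0.04 and 0 called. Mrps25 was the 1 gene with an unadjusted p under 0.05, at 125 ± 7.78 against 85.6 ± 26.6 (0.60, limma adjusted p = 0.417), and Mrps10 followed (0.29). Rpsa, a small-subunit protein outside the naming rule, gave -0.02 (interval -0.27 to 0.24).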

How the data were processed

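Whole skin RNA of 9 mice was hybridised to 1 array each. Per the labels, the authors used Microarray Suite 5.0 (MAS5) for the signals. The deposited numbers are the natural log of those signals. The log base is not stated and was settled from the values: the exponential of 100% of them is a whole multiple of 0.1 within 0.002, and the 2% trimmed mean signal is 200.1 in every array. The values were turned to log2 with no pseudocount. Control probe sets (66 of 12488) were left out, and of the others 10833 have 1 gene symbol, 396 several and 1193 none in the platform annotation, which can be old. One value was missing. Replicates are individual mice, and no pair of arrays shared more than 0.537% of values.

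Probe sets whose signal reached the array's 40th percentile in 4 or more arrays were tested with limma 3.58.1 in R 4.3.3 (lmFit, eBayes with trend, two-sided), adjusted by Benjamini-Hochberg over all 7658. Single members also had an exact permutation test. Members, lists and tests were chosen with earlier results of these data known. Genes named were the members with the smallest p in each direction, the brightest and dimmest, the most and least variable, those of set roles, those whose probe sets differ by more than 0.5, and the 2 smallest p of each list. Bright probe sets of Rpl7a, Rpl8, Rpl10a, Rpl19, Rps7, Rps18 and Rps28, 1 of Rps4l, and the untested probe sets of Rps15 and Rps4x, were named after their values were seen. Alternatives covered normalization, filter, pseudocount, weights, covariates, decimals of the values, the replicate number and each mouse left out.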

Additional observations from a re-analysis of the deposited data

Results flagged for a closer look

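Dixon's test was run on log signals, and the signals below are unlogged. Single mice stood apart in 3 of the 52 groups of named probe sets examined, where chance flags about 1 in 20 groups, or 2.6 here. Some of these probe sets were named for their spread, so that rate is only a guide. Rps4x read 8603.6 in wild type 2, while the other 3 wild-type mice read 7382 to 7386.6. Rpl37a read 1560.8 in knockout 4, against 2229.3 to 2421.1 in the other knockout mice. Rps27 read 298.8 in knockout 4, against 415.3 to 445.2 in the others.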

How the results depend on the processing

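No member passed the adjusted threshold by limma under any of the 24 alternatives, with a smallest adjusted p of 0.332, and at most 3 members had an unadjusted p under 0.05. The 24 include the 9-decimal arrays, whose single wild-type mouse makes that fit no support. The median difference of the members ran from -0.09 to 0.05. The pooled SD of the members' median between mice was 0.11, which describes single mice and is not the error of a group difference. The count of positive members, 11, was 21 of 48 with no filter and 21 within the 9-decimal arrays. It was 17 with the hair follicle covariate, 8 with the cell cycle covariate, and 6 to 20 with each mouse left out. The count of all probe sets called, 4, was 7 with a pseudocount of 64, 9 with array weights, 10 within the 7-decimal and 0 within the 9-decimal arrays, 1 with the hair follicle covariate, 1 with the cell cycle covariate, and 4 to 8 with each mouse left out. The cause was not tested, beyond fewer arrays in the subsets. Among 567 values of named probe sets, 63 changed sign, none of them called, and no call was gained. With the replicate number as a block, 1 probe set of all was called and the member median was -0.01. Deviations from the group means correlated at -0.05 to 0.11 between same-numbered mice. Mice of different numbers were not set beside them, so this does not settle whether the numbers pair the mice. The number of mice and the dim probe sets limit precision.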
